A study of Homo sapiens with 39 samples.

Results

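The 33 genes described here encode enzymes of fatty acid oxidation and its close partners. They were taken by name from the 45435 gene rows of the series, as a list of genes of 1 pathway. The list was chosen with earlier results of these data known. The shares of all genes set beside its counts below are therefore a description and no independent test. The mRNA of the 33 genes was read by RNA-seq in 39 libraries. The cells were HCT116, derived from a human colorectal tumour, and carried the Flp-In T-REx system, which places a transgene at a fixed genomic site under a doxycycline switch. The 12 lines each carried 1 isoform of HNF4A (hepatocyte nuclear factor 4 alpha, a nuclear receptor of liver and gut epithelium) fused to GFP, and the control was the parental line without an HNF4A construct, with 3 libraries in each of the 13 groups. All groups, the parental cells included, received 2.5 µg/ml doxycycline for 48 h. Before that, the parental medium held blasticidin and zeocin and that of the lines blasticidin and hygromycin B. These antibiotics were withdrawn at induction. Each isoform was read in 1 stable line, no group expressed GFP alone, and the labels do not say whether the libraries of a group came from separate cultures. The p-values below therefore measure the spread between these libraries, which may be technical, and effects of the isoform, of GFP and of making a line cannot be told apart.

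Fatty acids are burned in mitochondria after the carnitine shuttle has carried them across the inner membrane. There each turn of the spiral oxidises the acyl-CoA, hydrates it, oxidises it again and cleaves off acetyl-CoA, and the electrons of the opening step pass through the electron transfer flavoprotein into the respiratory chain. Peroxisomes run a related pathway on very long and branched chains, and hepatocytes and enterocytes are known users of both. In liver, surplus acetyl-CoA is turned into ketone bodies. None of the 33 genes is a dedicated enzyme of ketone body synthesis or use, so the set is called fatty acid oxidation genes here. TPM is a transcript's level per length scaled to the same total in every library.

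The libraries had between 27884 and 30550 genes above 0 TPM, and no pair shared more than 0.00651% of identical values. The mean HNF4A level was 31.5 TPM ± 0.589 (SD, n = 3) without a construct and between 614 TPM (isoform 2) and 1071 TPM (isoform 6) in the lines. The epithelial marker EPCAM was at 433 to 624 TPM and the intestinal factor CDX2 at 8.99 to 16.4 TPM, while the intestinal markers CDX1 (at most 0.0803 TPM) and CDH17 (at most 0.14 TPM) were near 0 and VIL1 spanned 0.482 to 45.6 TPM. Of the markers of other cell types, the blood marker PTPRC reached at most 0.296 TPM, the fibroblast marker COL3A1 0.706 TPM and the hepatocyte marker ALB 0.659 TPM, while PECAM1 and COL1A1 reached 6.43 and 14.9 TPM; the 5 together summed to 14.9 to 17.5 TPM in parental libraries and 9.92 to 20.4 TPM in those of the lines. The 4 intestinal markers summed to 15.5 to 16.3 TPM and 14.4 to 54.9 TPM. The epithelial markers EPCAM, CDH1, KRT8, KRT18 and KRT19 summed to 3044 to 3171 TPM in parental libraries. Their sum in the libraries of the lines was 2476 to 5580 TPM. The part of such shifts in the results below was not tested. Replicate 1 of isoform 3 stood apart from its partners, with 407 TPM of HNF4A against 833 and 772 TPM, so the main values of that line are also given without it.

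Of the 33 genes, 28 had a mean of at least 1 TPM over all libraries and were tested. In the parental cells ETFA, the alpha subunit of the electron transfer flavoprotein, was the most abundant at 225 TPM ± 0.864 (SD, n = 3), and ECI1, ETFB, ACADVL and HADHA followed at 163, 157, 142 and 117 TPM. The 5 genes under the filter were the peroxisomal oxidase ACOX2 (0.335 TPM in parental cells, at most 1.22 TPM in any library), the peroxisomal carnitine octanoyltransferase CROT (0.285 and 0.404 TPM), the acyl-CoA thioesterases ACOT2 (0.229 and 0.527 TPM) and ACOT1 (0.189 and 0.461 TPM), and the long-chain dehydrogenase ACADL (0.0082 and 0.0479 TPM). ACOT1 and ACOT2 are near-identical copies, so the split of reads between them is uncertain.

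Mean fatty acid oxidation mRNA was higher in every line than in the parental cells. It was highest with isoforms 1 and 2, and isoform 3 was close to isoform 10. Summed over the 33 genes, the parental libraries were at 1809 TPM ± 32.4 (SD, n = 3). The sum was 2838 TPM ± 67 (SD, n = 3) with isoform 1, 2758 TPM ± 94.2 with isoform 2 and 2268 TPM ± 164 with isoform 3, where replicate 1 was lowest at 2078 TPM and the other libraries were at 2356 and 2369 TPM. It was 1861, 1890 and 1949 TPM with isoforms 4, 5 and 6, 2064, 2044 and 2030 TPM with isoforms 7, 8 and 9, and 2245, 2137 and 1974 TPM with isoforms 10, 11 and 12. These sums carry no test of their own, and in bulk RNA more cells with the mRNA and more mRNA per cell cannot be told apart.

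Each line was compared with the parental cells in a limma fit over all genes on the log2(TPM + 1) scale. All 12 comparisons share the same 3 parental libraries. A gene is said to have risen or fallen where its Benjamini-Hochberg adjusted p was under 0.05, and is called changed where its log2 fold change was also at least 1, which is 2-fold. With isoform 1, 6 of the 28 genes were called higher, against 2.74% of all genes tested. With isoform 2 the count was 4, against 2.36% of all genes, and after rescaling the libraries by median of ratios it was 8, against 2.79%, with ACAD11, CRAT, DECR2 and HADHB passing the minimum at 1.09, 1.04, 1.01 and 1.08. It was 0 with isoform 3 (0.653% of all genes), 0 with isoforms 4 (0.227%), 5 (0.153%) and 6 (0.0933%), 1 with isoform 7 (1.12%), 0 with isoforms 8 (0.94%) and 9 (0.387%), 1 with isoform 10 (1.13%), 2 with isoform 11 (1.05%) and 0 with isoform 12 (0.44%). None was called lower in any line, where 1.78%, 1.37%, 0.153%, 0.313%, 0.14%, 0.153%, 0.96%, 0.473%, 0.44%, 0.313%, 0.653% and 0.133% of all genes were with isoforms 1 to 12 in turn. The 14 calls fell on 7 genes: CRAT, ACAD11, HADHB, ACAA2, DECR1, ETFDH and ACAA1.

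Smaller shifts were more widespread. With isoform 1, 23 of the 28 genes rose and 2 fell, while 19.8% of all genes rose and 38.7% fell. With isoform 2, 20 rose and 2 fell (19.7% and 35.6% of all genes). With isoform 3, 19 rose and 0 fell (11.2% and 14.7%). The lines of isoforms 4, 5 and 6 had 6, 3 and 4 genes that rose and 5, 2 and 1 that fell, against 6.26%, 9.57% and 5.94% of all genes that rose and 10.1%, 5.22% and 4.13% that fell, so the isoform 5 share was close to the background. Isoforms 7, 8 and 9 each had 10 that rose (13.4%, 16.9% and 10.9% of all genes), with 4, 4 and 0 that fell (26.2%, 17.5% and 11.8%). Isoforms 10, 11 and 12 had 15, 12 and 7 that rose (17%, 14.5% and 7.92%) and 2, 1 and 1 that fell (20.4%, 24% and 6.65%). Of the 28 genes, 19 rose in all 3 lines of isoforms 1 to 3, against 9.32% of all genes. The same count was 2 for isoforms 4 to 6 (ETFA and ETFDH, 1.83% of all genes), 7 for isoforms 7 to 9 (6.95%) and 6 for isoforms 10 to 12 (4.74%). Those that fell in all 3 lines numbered 0, 1 (ACOX3), 0 and 1 (ACAD10), against 13%, 1.55%, 7.76% and 3.95% of all genes.

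The median log2 fold change of the 28 genes was 0.57 with isoform 1, where that of all genes was -0.11. It was 0.45 with isoform 2 (all genes -0.09), 0.23 with isoform 3 (-0.04), 0.22 with isoform 10 (-0.02) and 0.14 with isoform 11 (-0.06). Without replicate 1, isoform 3 had 18 genes that rose and a median of 0.31, and 18 genes rose in all 3 lines of isoforms 1 to 3. The gene lost was ECHS1 (0.13, limma adjusted p 0.0686), and the log2 fold changes of ETFDH, CRAT, HADHB and ACAD11 with isoform 3 were then 0.97, 0.87, 0.76 and 0.62, against 0.80, 0.72, 0.63 and 0.42 with all 3 libraries. Because TPM shares a fixed total, the libraries were also rescaled by median of ratios, which moved the isoform 1 median of all genes to -0.01 and that of the 28 genes to 0.67. The rescaled split of risen and fallen genes was 9 and 4 in isoform 4 (11.8% and 7.61% of all genes) and 14 and 3 in isoform 7 (21.6% and 20% of all genes).

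**Figure D1:**
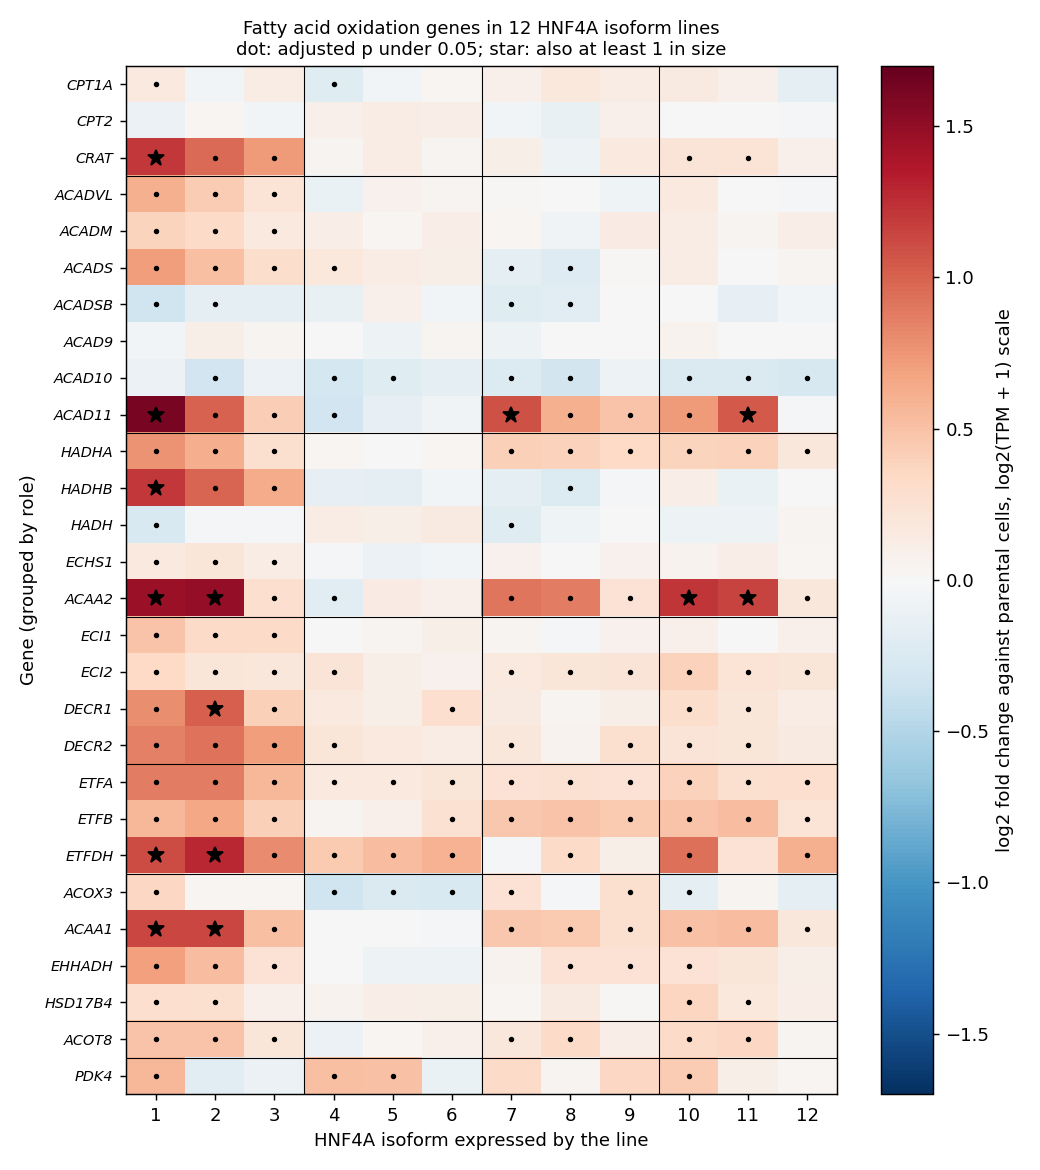
Log2 fold change of each line (columns, isoforms 1 to 12) against the parental cells on the log2(TPM + 1) scale for the 28 genes tested (rows, grouped by role). Red is higher and blue lower, a dot marks an adjusted p under 0.05 and a star also a size of at least 1; the stars number 6 and 4 in the columns of isoforms 1 and 2 and none stands in those of isoforms 4 to 6.

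**Figure D2:**
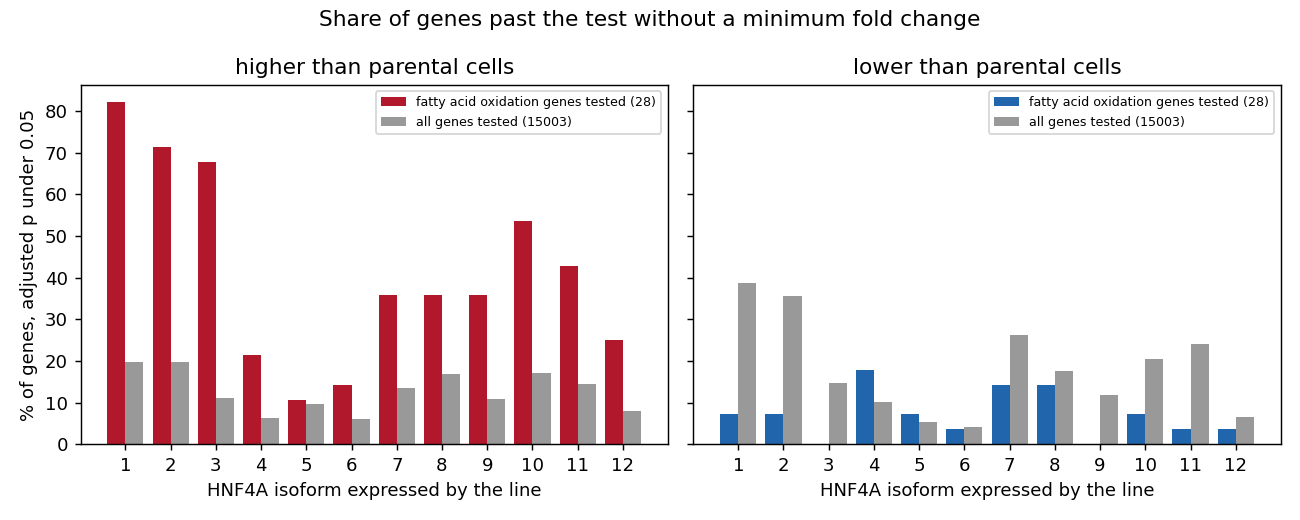
Percent of genes with an adjusted p under 0.05 and no minimum fold change in each isoform line, higher (left) or lower (right) than the parental cells. Coloured bars are the 28 fatty acid oxidation genes and grey bars all 15003 genes tested; with isoform 1, 23 of the 28 genes rose while 19.8% of all genes did.

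Of the 3 tested genes of the carnitine shuttle, CRAT was the only one called. It encodes carnitine acetyltransferase, which moves acetyl groups between CoA and carnitine, and lies on chromosome 9 from 129094810 to 129111189 (GRCh38, minus strand). The parental libraries held 25.5, 25.9 and 25.9 TPM, and isoform 1 gave 63.3, 58.6 and 59.1 TPM. With isoform 2 it was 47.6, 53.1 and 52.5 TPM, and with isoform 3 it was 34.9, 49.7 and 46.1 TPM. All 9 libraries of isoforms 1 to 3 lay above all parental libraries, and replicate 1 of isoform 3 was the lowest of them. The log2 fold change of CRAT was 1.20 ± 0.07 (SE) with isoform 1 (limma, adjusted p 1.97e-14), 0.96 with isoform 2 and 0.72 with isoform 3. Outside these lines it rose by 0.22 and 0.23 with isoforms 10 and 11. CPT1A, the malonyl-CoA-regulated gate of the shuttle, passed the limma test higher only with isoform 1 among the 12 lines (0.17, adjusted p 0.0472). It fell with isoform 4 (-0.21, limma adjusted p 0.0399). Its largest log2 fold change, 0.18 with isoform 8, did not pass, so the single rise rests on the threshold. In the authors' deposited tables CPT1A was higher at an adjusted p under 0.05 with isoforms 1, 3, 7, 8, 10 and 11. CPT2, which rebuilds the acyl-CoA on the inner side, passed the test in none of the 12 lines, with log2 fold changes between -0.12 and 0.12.

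The acyl-CoA dehydrogenases, which open each turn of the spiral by forming a double bond, split among themselves. With isoform 1, 4 of the 7 tested rose and 1 fell. The chain-length enzymes of the core pathway rose in the 3 lines of isoforms 1 to 3: ACADVL for very long chains by 0.61, 0.43 and 0.23, ACADS for short chains by 0.71, 0.51 and 0.30, and ACADM for medium chains by at most 0.38 (isoform 1). ACADS fell with isoforms 7 (-0.17, and -0.10 after rescaling) and 8 (-0.22, and -0.21 after rescaling). The authors' deposited tables have ACADS lower at an adjusted p under 0.05 with isoform 8 and not with isoform 7. ACADSB, which acts on short branched acyl-CoAs of isoleucine breakdown, fell in 4 lines, most with isoform 1 (-0.34, and -0.24 after rescaling). The others were those of isoforms 2, 7 and 8. In the authors' deposited tables ACADSB was lower at an adjusted p under 0.05 with isoforms 1 and 8 and not with isoforms 2 and 7. ACAD10, a less characterised family member, fell in 8 lines, most with isoform 2 (-0.32, and -0.23 after rescaling). ACAD9, which also serves the assembly of respiratory complex I, passed the test in no line, within -0.08 to 0.10.

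ACAD11, a dehydrogenase of long-chain and hydroxylated acyl-CoAs, had the largest fold change of the 28 genes. It lies on chromosome 3 from 132558138 to 132660723 (GRCh38, minus strand). Its parental libraries were at 13.9, 14.7 and 14.4 TPM, and those of isoform 1 at 44.6, 46.8 and 46.7 TPM. Isoform 2 gave 30.0, 28.4 and 30.8 TPM and isoform 3 gave 14.6, 22.8 and 22.6 TPM, so the lowest isoform 3 library lay among the parental ones. The isoform 7 libraries were at 31.0, 29.3 and 34.1 TPM and those of isoform 11 at 29.1, 30.8 and 32.0 TPM, all above the parental cells. With isoform 12 the libraries were at 13.5, 14.6 and 14.4 TPM, and they overlapped the parental ones. The log2 fold change was 1.61 ± 0.10 (SE) with isoform 1 (limma, adjusted p 1.16e-14), 1.08 with isoform 7 and 1.04 with isoform 11, and these 3 were called. With isoform 2 it was 1.00 on rounding, just under the minimum for a call. ACAD11 rose by 0.42 with isoform 3, 0.60 with isoform 8, 0.48 with isoform 9 and 0.73 with isoform 10, and it fell by 0.32 with isoform 4 (adjusted p 0.023).

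The library kit keeps strand, but whether the authors' quantification used it is not given in the sources used here, and reads from overlapping genes in the ACAD11 values were not tested.

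The 2 genes of the mitochondrial trifunctional protein rose in different numbers of lines, 9 for HADHA and 3 for HADHB. HADHA encodes its alpha subunit, with hydratase and long-chain hydroxyacyl-CoA dehydrogenase activity, and HADHB its beta subunit, the long-chain thiolase, and both subunits are needed for the complex. The genes lie back to back on chromosome 2, HADHA from 26190635 to 26244726 on the minus strand and HADHB from 26243170 to 26290468 on the plus strand (GRCh38). Their RefSeq start sites (GRCh38.p14) are 307 bases apart. The windows of 250 bases before each start site are printed because they overlap in 194 bases, shown in capitals, read on opposite strands. They are HADHA at chr2:26244633-26244882 on the minus strand and HADHB at chr2:26244689-26244938 on the plus strand. The gene spans above come from GENCODE and start upstream of these RefSeq sites. The HADHB window therefore lies inside the span of HADHB, and the HADHA window lies in part inside that of HADHA.
HADHA: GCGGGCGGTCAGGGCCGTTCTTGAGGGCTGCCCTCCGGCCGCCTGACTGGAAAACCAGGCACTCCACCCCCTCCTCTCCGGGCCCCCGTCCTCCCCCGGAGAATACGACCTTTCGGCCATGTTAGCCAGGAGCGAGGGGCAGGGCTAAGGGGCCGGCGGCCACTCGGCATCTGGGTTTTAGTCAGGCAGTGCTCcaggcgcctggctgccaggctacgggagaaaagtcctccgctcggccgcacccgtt
HADHB: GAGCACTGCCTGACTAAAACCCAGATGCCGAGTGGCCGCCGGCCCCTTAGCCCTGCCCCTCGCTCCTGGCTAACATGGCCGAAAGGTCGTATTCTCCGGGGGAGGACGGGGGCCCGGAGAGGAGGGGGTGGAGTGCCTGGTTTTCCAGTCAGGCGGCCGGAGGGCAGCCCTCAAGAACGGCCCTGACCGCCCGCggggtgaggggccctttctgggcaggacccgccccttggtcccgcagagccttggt

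In the limma fit HADHB rose with isoforms 1 to 3 and in no other line. Its parental libraries were at 68.1, 72.7 and 71.8 TPM, those of isoform 1 at 162, 160 and 171 TPM, those of isoform 2 at 135, 147 and 145 TPM and those of isoform 3 at 91.9, 122 and 120 TPM. All 9 libraries of these lines exceeded the parental ones. In the 27 libraries of isoforms 4 to 12 the range was 57.7 to 79.0 TPM, which encloses the parental values. The log2 fold change was 1.20 ± 0.07 (SE) with isoform 1 (limma, adjusted p 8.01e-15), 0.99 with isoform 2 and 0.63 with isoform 3, and HADHB fell by 0.23 with isoform 8. At an adjusted p under 0.05 the authors' deposited tables also have HADHB higher with isoform 10 (0.15). They have it lower with isoforms 5 (-0.17) and 8 (-0.20).

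HADHA rose in 9 lines, those of isoforms 1 to 3 and 7 to 12. Its parental libraries were at 112, 119 and 120 TPM, those of isoform 1 at 196, 195 and 208 TPM and those of isoform 2 at 170, 183 and 187 TPM. Those of isoform 3 were at 130, 145 and 148 TPM. The 9 libraries of isoforms 7 to 9 ran from 136 to 160 TPM and the 9 of isoforms 10 to 12 from 125 to 157 TPM, above every parental library, while those of isoforms 4 to 6 (111 to 123 TPM) overlapped them. The log2 fold change of HADHA was 0.77 ± 0.05 (SE) with isoform 1 (limma, adjusted p 2.41e-13), 0.62 with isoform 2, 0.27 with isoform 3 and between 0.19 and 0.41 with isoforms 7 to 12.

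The ratio of HADHB to HADHA TPM followed from these values. It was 0.606 ± 0.00703 (SD, n = 3) in the parental cells, and 0.823, 0.788 and 0.783 with isoforms 1, 2 and 3. It was 0.54, 0.548 and 0.574 with isoforms 4, 5 and 6. The ratio was 0.405, 0.393 and 0.471 with isoforms 7, 8 and 9 and 0.502, 0.428 and 0.531 with isoforms 10, 11 and 12. The 9 libraries of isoforms 1 to 3 lay between 0.704 and 0.838, and the other 30 libraries between 0.389 and 0.611, with no overlap. The ratio was formed after the values had been seen and carries no test. HADHA and HADHB overlap on opposite strands, and reads assigned to the wrong partner were not tested.

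**Figure D3:**
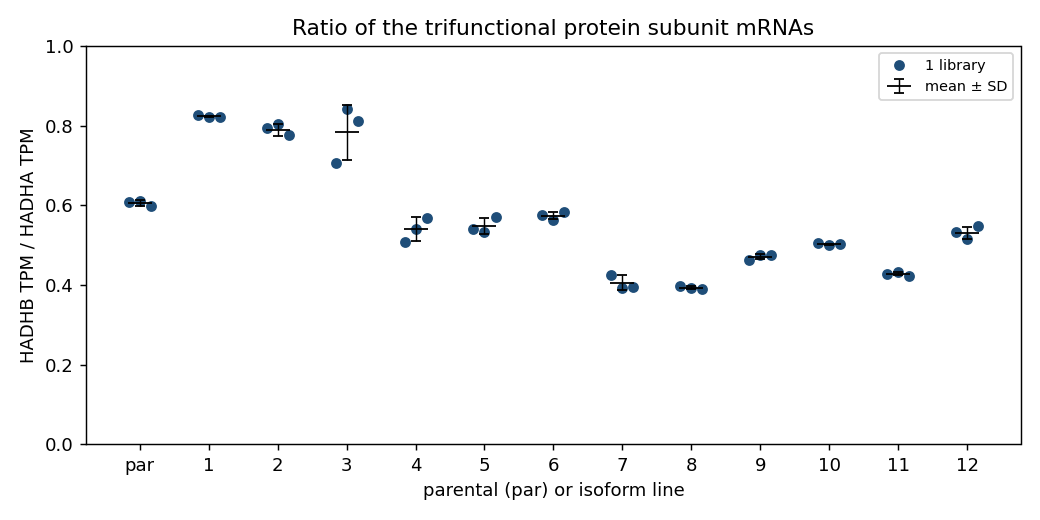
Ratio of HADHB to HADHA TPM (vertical axis) in each of the 39 libraries, by group (horizontal axis, par for parental and 1 to 12 for the isoform lines); points are libraries, bars the mean ± SD. Isoforms 1 to 3 lie above the parental cells at 0.606, and isoforms 7, 8, 9 and 11 lie lowest, with means between 0.393 and 0.471.

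The other steps of the spiral moved less, except the last. ECHS1, the short-chain hydratase, rose in 3 lines by at most 0.20 (isoform 2). HADH, the dehydrogenase of medium and short hydroxyacyl-CoAs, rose in none of the 12 lines in the limma fit. It fell there with isoforms 1 (-0.26, and -0.15 after rescaling) and 7 (-0.20, and -0.14 after rescaling). The authors' deposited tables differ for HADH. At an adjusted p under 0.05 they have it higher with isoforms 4 (0.17) and 6 (0.16). With isoforms 1 (-0.12) and 7 (-0.11) it does not pass in them.

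ACAA2, the mitochondrial 3-ketoacyl-CoA thiolase that cleaves off acetyl-CoA, was called in 4 lines, more than any other of the 28 genes. It lies on chromosome 18 from 49782167 to 49813960 (GRCh38, minus strand). The 250 bases before its RefSeq start site, chr18:49813534-49813783 on the minus strand of GRCh38.p14, are printed because its mRNA was the most often called of the set. That window lies inside the gene span just given, which comes from GENCODE and starts upstream of the RefSeq start site.
ACAA2: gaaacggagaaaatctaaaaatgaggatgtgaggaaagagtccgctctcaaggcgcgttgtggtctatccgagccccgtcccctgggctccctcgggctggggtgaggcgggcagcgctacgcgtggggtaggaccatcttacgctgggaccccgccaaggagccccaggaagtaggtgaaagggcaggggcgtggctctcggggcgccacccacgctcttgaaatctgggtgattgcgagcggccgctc

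The parental libraries held 55.2, 56.3 and 56.6 TPM of ACAA2. Isoform 1 gave 155, 145 and 172 TPM, isoform 2 gave 150, 164 and 167 TPM, isoform 10 gave 127, 128 and 141 TPM and isoform 11 gave 119, 128 and 130 TPM. In these 4 lines each library was at more than 2 times every parental library. Isoforms 7 and 8 followed with 96.5 to 110 TPM over their 6 libraries. The lines of isoforms 3, 9 and 12 were much lower, with 63.3, 72.1 and 70.2 TPM, 60.3, 67.1 and 72.2 TPM, and 61.0, 63.0 and 68.0 TPM. They still lay above all parental libraries. The log2 fold changes were 1.47 ± 0.06 (SE) with isoform 1 (limma, adjusted p 3.39e-18), 1.50 with isoform 2, 1.22 with isoform 10 and 1.15 with isoform 11, all called, and 0.91 and 0.87 with isoforms 7 and 8. They were 0.28, 0.24 and 0.19 with isoforms 3, 9 and 12. ACAA2 fell by 0.19 with isoform 4 and did not pass the test with isoforms 5 (0.14) and 6 (0.09).

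**Figure D4:**
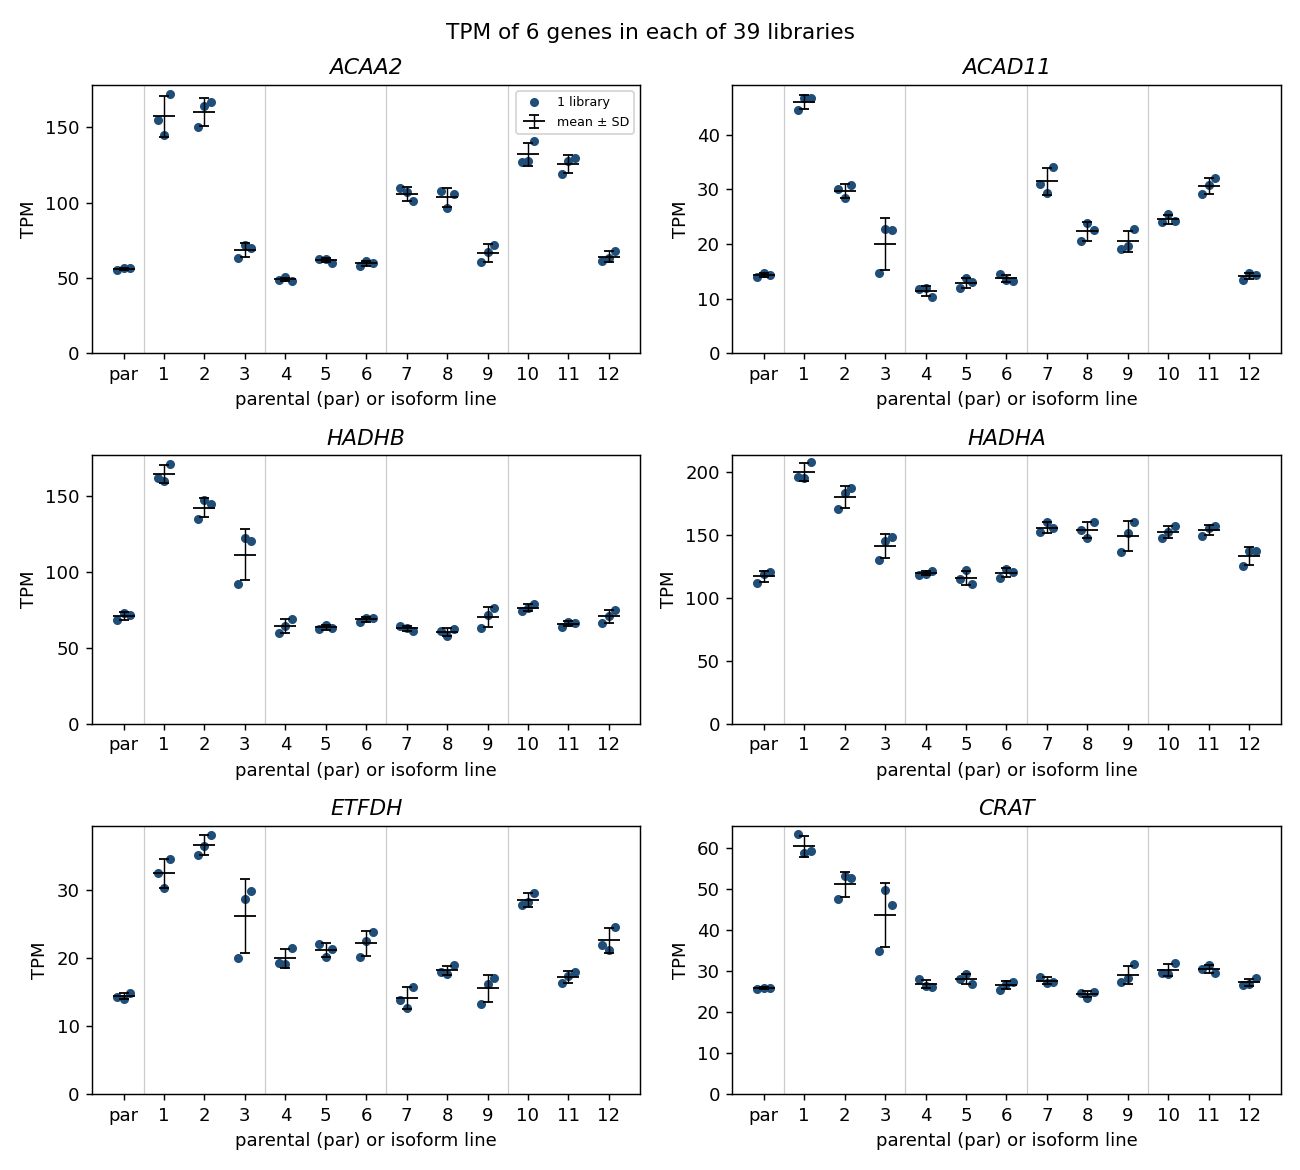
TPM (vertical axes, from 0) of ACAA2, ACAD11, HADHB, HADHA, ETFDH and CRAT in each of the 39 libraries, by group (par for parental, 1 to 12 for the isoform lines); points are libraries, bars the mean ± SD. HADHB and CRAT stand highest in isoforms 1 to 3, while ACAA2 is also high in isoforms 7, 8, 10 and 11 and falls back to between 60.3 and 72.2 TPM in isoforms 3, 9 and 12.

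The auxiliary enzymes let the spiral take unsaturated fatty acids, and all 4 rose in each line of isoforms 1 to 3. DECR1 is the mitochondrial 2,4-dienoyl-CoA reductase. The parental level of DECR1 was 99.6, 109 and 105 TPM, and isoform 2 gave 193, 219 and 226 TPM. Isoform 1 gave 175, 179 and 191 TPM and isoform 3 gave 116, 149 and 152 TPM, all above the parental cells. Its log2 fold change was 1.02 ± 0.08 (SE) with isoform 2 (limma, adjusted p 1.59e-12), 0.79 with isoform 1 and 0.40 with isoform 3. The call with isoform 2 rests on the minimum fold change: without replicate 3 of isoform 2 the value was 0.97, without its replicate 2 it was 0.99 and without parental replicate 1 it was 0.98. DECR2, the peroxisomal counterpart (chromosome 16, 401826 to 412487, GRCh38, plus strand), was at 14.9, 13.3 and 13.6 TPM in the parental libraries. Isoform 1 gave 25.9, 26.5 and 25.4 TPM, isoform 2 gave 27.2, 28.5 and 25.9 TPM and isoform 3 gave 20.4, 25.4 and 24.6 TPM, and again no library overlapped the parental ones. DECR2 rose by 0.85 ± 0.07 (SE), 0.92 and 0.71 in these lines and by 0.19 to 0.27 in isoforms 4, 7, 9, 10 and 11. The isomerase ECI2 rose in 10 lines by at most 0.39 (isoform 10), and ECI1 in 3 lines by at most 0.48 (isoform 1).

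The 3 electron transfer genes, which drain the dehydrogenases, rose in 12, 10 and 9 of the 12 lines. ETFA rose in 12 of 12 lines, the only one of the 28 genes to do so. It lies on chromosome 15 from 76215355 to 76311472 (GRCh38, minus strand). The 250 bases before its RefSeq start site, chr15:76311470-76311719 on the minus strand of GRCh38.p14, are printed for that reason.
ETFA: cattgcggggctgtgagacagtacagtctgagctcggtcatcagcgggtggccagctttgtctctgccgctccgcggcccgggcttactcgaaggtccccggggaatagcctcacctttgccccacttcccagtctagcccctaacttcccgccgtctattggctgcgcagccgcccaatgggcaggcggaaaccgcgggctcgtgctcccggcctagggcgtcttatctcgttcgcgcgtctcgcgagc

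The parental libraries held 225, 224 and 226 TPM of ETFA, and the level was 408, 404 and 423 TPM with isoform 1 and 399, 423 and 418 TPM with isoform 2. Isoform 3 gave 290, 358 and 361 TPM. The lowest of the 27 libraries of isoforms 4 to 12 had 242 TPM, still above the parental libraries. Its log2 fold change was 0.87 ± 0.05 (SE) with isoforms 1 (limma, adjusted p 9.57e-15) and 2, 0.57 with isoform 3, and between 0.17 and 0.39 in the other 9 lines, so it was called in none. ETFB, the beta subunit, rose in 10 lines, by 0.56, 0.66 and 0.40 with isoforms 1 to 3 and by 0.44 to 0.52 with isoforms 7 to 11. Parental libraries held 155, 160 and 157 TPM of ETFB, and it was between 209 and 226 TPM in the 9 libraries of isoforms 7 to 9.

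ETFDH, the ubiquinone oxidoreductase that takes electrons from the flavoprotein, lies on chromosome 4 from 158672125 to 158709623 (GRCh38, plus strand). Its parental libraries were at 14.3, 14.0 and 14.9 TPM. It was at 32.4, 30.3 and 34.5 TPM with isoform 1, at 35.1, 36.5 and 38.1 TPM with isoform 2 and at 20.0, 28.7 and 29.8 TPM with isoform 3, and all 9 exceeded the parental libraries. Isoform 10 gave 27.7, 28.2 and 29.6 TPM, while isoform 7 gave 13.9, 12.7 and 15.8 TPM, which enclosed the parental values. It also rose with isoforms 4, 5 and 6, where none of the thiolase genes ACAA1, ACAA2 and HADHB did. The log2 fold changes were 1.11 ± 0.10 (SE) with isoform 1 (limma, adjusted p 6.28e-11), 1.28 with isoform 2, 0.80 with isoform 3, 0.44, 0.53 and 0.59 with isoforms 4, 5 and 6, 0.32 with isoform 8, 0.94 with isoform 10 and 0.61 with isoform 12. With isoforms 7, 9 and 11 they were -0.03, 0.10 and 0.24 and did not pass the test. PPID, which encodes the chaperone cyclophilin 40 and overlaps ETFDH on the opposite strand, rose in those 9 lines, with log2 fold changes from 0.47 to 0.97, fell with isoform 7 (-0.29), and had -0.14 and 0.05 with isoforms 9 and 11. Whether reads of PPID enter the ETFDH values was not tested.

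Among the peroxisomal genes, ACAA1 moved most. It encodes the peroxisomal thiolase and lies on chromosome 3 from 38103129 to 38137242 (GRCh38, minus strand). The 3 parental values were 51.4, 52.2 and 50.3 TPM, and the level was 113, 116 and 113 TPM with isoform 1 and 108, 117 and 116 TPM with isoform 2. Isoform 3 gave 66.6, 78.6 and 75.5 TPM, between the parental cells and the other 2 lines. ACAA1 rose by 1.14 ± 0.05 (SE) with isoform 1 (limma, adjusted p 4.05e-18), 1.13 with isoform 2 and 0.51 with isoform 3, and by 0.19 to 0.53 with isoforms 7 to 12. In isoforms 4 to 6 its 9 libraries (48.0 to 53.3 TPM) enclosed the parental range. EHHADH, the bifunctional hydratase and dehydrogenase, rose in 6 lines, most with isoform 1 (0.70). HSD17B4, the other bifunctional enzyme, rose in 4 lines by at most 0.37 (isoform 10). ACOX3, an oxidase of branched chains, went both ways: it rose with isoforms 1, 7 and 9 (0.35, 0.25 and 0.27) and fell with isoforms 4, 5, 6 and 10 (-0.34, -0.25, -0.26 and -0.17). ACOT8, a peroxisomal thioesterase, rose in 7 lines by at most 0.49 (isoform 1).

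PDK4 is no oxidation enzyme but the kinase that switches off pyruvate dehydrogenase when fat is burned. It was low in all libraries, at 1.71 to 2.84 TPM in the parental cells and at most 4.2 TPM in any library. It rose with isoforms 1, 4, 5 and 10, with log2 fold changes of 0.57, 0.51, 0.50 and 0.43 and an SE of 0.14, and not with isoforms 2 (-0.18) and 3 (-0.10).

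To compare forms of HNF4A, the 12 line means were fitted in limma with the N-terminal form (isoforms 1 to 3, 4 to 6, 7 to 9 and 10 to 12) and the C-terminal form as terms. These forms come from the standard isoform nomenclature: isoforms 1 to 6 start at promoter P1, 4 to 6 carry an added exon, 7 to 12 start at promoter P2, and isoforms 3, 6, 9 and 12 have a short C-terminus. Between isoforms 4 to 6 and 1 to 3, 3 of the 28 genes were called lower, against 1.37% of all genes: ACAD11 (-1.19 ± 0.25 SE, adjusted p 0.00813), ACAA2 (-1.07 ± 0.23, adjusted p 0.00867) and HADHB (-1.06 ± 0.12, adjusted p 0.000902). Without replicate 1 of isoform 3 they were at -1.25, -1.09 and -1.10 and stayed called. Without the minimum size, 19 were lower and 1 higher, HADH at 0.23, where 12.6% of all genes were lower and 22.1% higher. The median difference of the 28 genes was -0.40 and that of all genes 0.07.

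Between isoforms 7 to 9 and 1 to 3, only HADHB among the 28 genes was called lower (-1.08 ± 0.12 SE, limma adjusted p 0.00311), against 0.493% of all genes, and at -1.12 without replicate 1 of isoform 3. Without the minimum size 11 were lower and 0 higher, against 4.95% and 6.65% of all genes, among them CRAT (-0.90), ETFDH (-0.94) and DECR2 (-0.65). HADHA did not pass (-0.17 ± 0.08, adjusted p 0.191). ACAA2 (-0.41, adjusted p 0.25) and ACAD11 (-0.29, adjusted p 0.449) did not pass either.

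**Figure D5:**
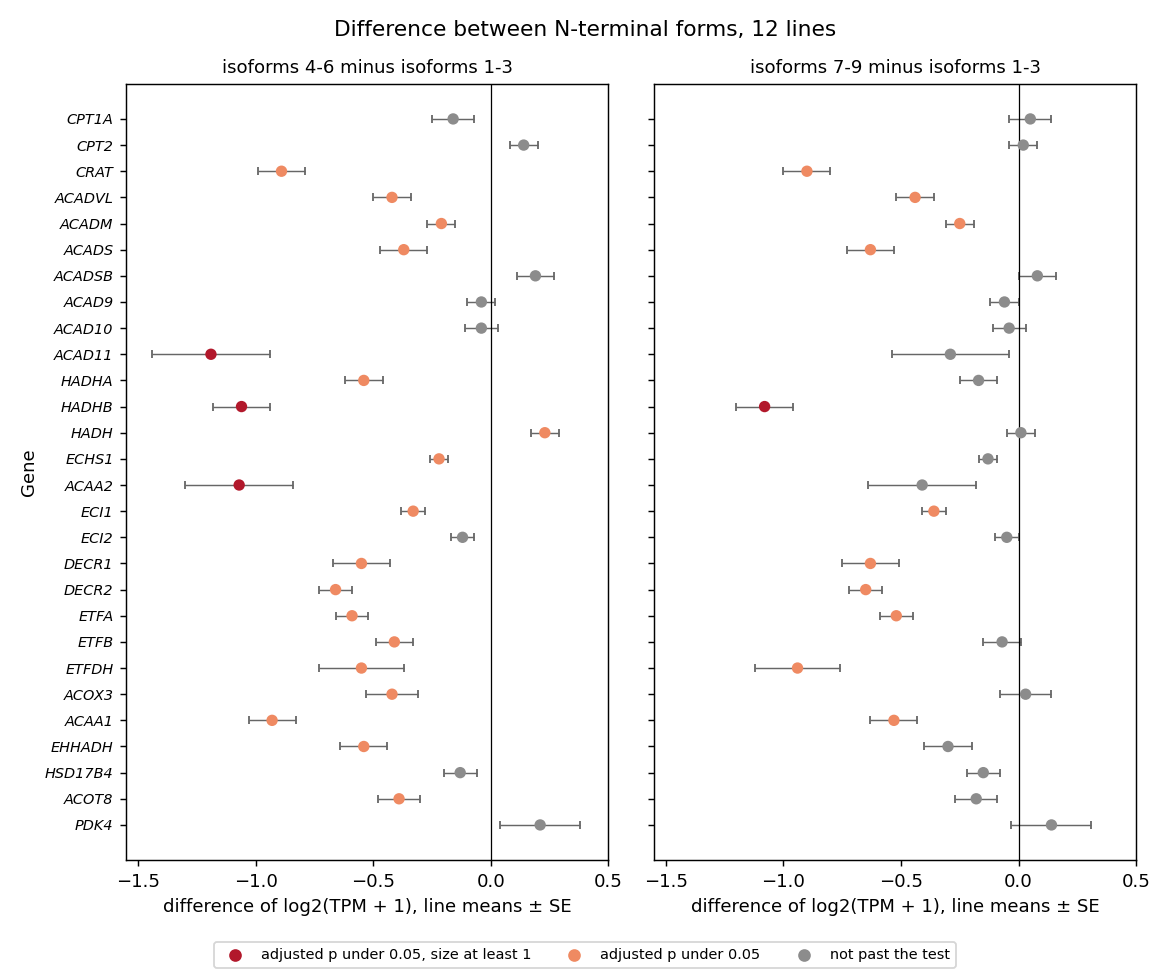
Difference in log2(TPM + 1) between isoforms 4 to 6 (left) or 7 to 9 (right) and isoforms 1 to 3 for the 28 genes, estimated from 12 line means; points are estimates, bars ± SE, and colours show which passed the test. HADHB lies near -1.1 in both panels, at -1.06 and -1.08, while ACAA2 and ACAD11 pass only in the left one.

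No gene of the 28 was called between isoforms 10 to 12 and 7 to 9, for the short C-terminus or for the insertion of isoforms 2, 5, 8 and 11, in the limma model of line means, where 0%, 0.00667% and 0% of all genes were called. At an unadjusted p under 0.05 the 28 genes gave 3, 6 and 1, and 7.55%, 18.2% and 3.03% of all genes had such a p. The additive estimate for the short C-terminus was -0.68 ± 0.17 (SE) for ACAA2 (adjusted p 0.126) and -0.49 ± 0.19 for ACAD11 (adjusted p 0.216), and it averages over N-terminal forms.

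The lines with a short C-terminus were therefore also set against their long partners one by one, in limma contrasts over libraries that were added after the data had been seen. Isoform 3 was lower than isoform 1 for ACAA2 (-1.19 ± 0.06 SE, adjusted p 4.15e-15) and ACAD11 (-1.19 ± 0.10, adjusted p 4.77e-11), the 2 genes called of the 28, against 1.17% of all genes. Without replicate 1 of isoform 3, ACAA2 was at -1.13 and ACAD11 at -0.99, which is under the minimum for a call. Isoform 12 was lower than isoform 10 for ACAA2 (-1.03 ± 0.06, adjusted p 2.92e-13), the single call of the 28, against 0.42% of all genes. Between isoforms 9 and 7 no gene of the 28 was called (0.42% of all genes), and ACAA2 differed by -0.67 ± 0.06 (adjusted p 3.72e-09). Between isoforms 6 and 4 it differed the other way, by 0.27 (adjusted p 0.00323), with 0 of the 28 genes called against 0.493% of all genes. HADHB did not pass between isoforms 12 and 10 (-0.11), 9 and 7 (0.15) or 6 and 4 (0.09), and differed by -0.57 between isoforms 3 and 1. These contrasts compare single lines, in which isoform and line cannot be told apart. In the 4 contrasts of an insertion line with its partner (isoforms 2, 5, 8 and 11 against 1, 4, 7 and 10), 0 of the 28 genes were called in limma, against 0.347%, 0.353%, 0.227% and 0.2% of all genes, with 19, 5, 9 and 11 at an unadjusted p under 0.05, where 28.9%, 22%, 29% and 26.3% of all genes had such a p. Without a minimum size, 4 of the 28 genes were higher and 11 lower with isoform 2 than with isoform 1 (10.5% and 6.97% of all genes).

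The authors' deposited tables of each line against the parental cells hold their own fold changes and adjusted p-values. At an adjusted p under 0.05 and a log2 fold change of at least 1 in size, the authors' deposited table of isoform 1 held 9 of the 33 genes, all higher, against 5.61% of the genes with an adjusted p in it. These were the 6 genes called here for isoform 1 and ACOX2, ETFA and DECR2. The authors' deposited table of isoform 2 also held 9, against 4.93%, which were the 4 called here and ACOX2, ACAD11, CRAT, DECR2 and HADHB. The count was 1 with isoform 3 (ETFDH, against 1.21%), 2 with isoform 7 (ACAD11 and ACAA2, 2.65%), 2 with isoform 10 (ETFDH and ACAA2, 1.47%) and 2 with isoform 11 (ACAD11 and ACAA2, 1.9%) in the authors' deposited tables, and 0 with isoforms 4, 5, 6, 8, 9 and 12 (0.408%, 0.201%, 0.0938%, 1.3%, 0.704% and 0.416%). ACOX2, which makes bile acid intermediates and oxidises branched chains, was under the filter used here, and its fold change rests on levels of at most 1.22 TPM.

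Of 38 other genes of fatty acid entry, peroxisomal oxidation, ketone body use and their regulators, 34 were tested. These genes too were listed with earlier results of these data known, so their counts are no independent test. The genes called among them were SLC25A20, the carrier that exchanges acylcarnitine for carnitine across the inner membrane, and SCP2, which holds a peroxisomal thiolase for branched chains. SLC25A20 had log2 fold changes of 1.48 ± 0.08 (SE) with isoform 1 (limma, adjusted p 2.65e-16) and 1.36 with isoform 2, and SCP2 had 1.11 and 1.14, where 2.74% and 2.36% of all genes were called higher. With isoform 1, 17 of the 34 rose and 9 fell (19.8% and 38.7% of all genes), with isoform 2 the counts were 18 and 8 (19.7% and 35.6%), and with isoform 3 they were 15 and 2 (11.2% and 14.7%). Their median log2 fold change was 0.21, 0.19 and 0.12 in these lines. Of the 7 genes of ketone body synthesis and use, 5 were tested and 0 were called in any line in limma. With isoform 1, 2.74% of all genes were called higher and 1.78% lower, so 0 of 5 lies near the background. Without the minimum, 3 of the 5 rose and 2 fell with isoform 1, and 3 rose and 1 fell with isoform 2. BDH1, which interconverts acetoacetate and hydroxybutyrate, fell by 0.73 with isoform 1 and by 0.38 with isoform 2.

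RefSeq promoter windows (GRCh38.p14) from 250 bases before to 50 after the start site matched 24 of the 33 genes, in 30 windows. The 9 genes without a window were CRAT, ACAD11, DECR1, ETFDH, ACAA1, DECR2, EHHADH, ACOX2 and ACOT1. Of these, CRAT, ACAD11, DECR1, ETFDH and ACAA1 were called changed in at least 1 line, and their promoters were not searched. They were searched on both strands for the HNF4A-type elements CAAAGTCCA and CAAAGTTCA and for direct repeats of AGGTCA with either an A or any base (N) between the copies, of which the N form includes the A form. None of the 30 windows held one, the windows of HADHA, HADHB, ACAA2 and ETFA printed above included. Among 35116 promoter windows of the same length the shares were 0.384%, 0.296%, 0.0114% and 0.0228%. Of the half-sites that make up the longer letters, CAAAGT stood in the window of ACOT2 (11.9% of all windows) and AGGTCA in that of ACAD10 (13.8%). The absence of a longer element says only that its letters are not in these windows.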

How the data were processed

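Poly(A) RNA of 39 libraries was sequenced from strand-keeping libraries, per the labels' protocols. The submitters' processing notes name Trimmomatic 0.36, FastQC 0.11.5, kallisto 0.44.0, DESeq2 1.22.2 and the build GRCh38.p12, without saying which step made which value. The authors deposited 13 tables with TPM per library, summing to 999972.6 to 999987.7. The tables of the lines also hold, per the file headers, a mean of normalized counts (used as a signal, with totals of 50609338 to 56136330), p-values and adjusted p-values, a statistic (a score), and a log2 fold change and its SE. The authors' columns entered no fit. Read depth per library cannot be had from TPM, so no interval for counting error is given. For isoforms 4 and 5 the labels repeat 1 name, so these libraries are known by group only.

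The 12 rows of HNF4A were summed. The 15003 genes whose mean reached 1 TPM were fitted on log2(TPM + 1), where low genes are understated, with limma 3.58.1 in R 4.3.3 (eBayes with trend, 13 groups, 26 residual degrees of freedom, median residual SD 0.0936). Line means were fitted with 6 residual degrees of freedom. The scripts were tested on simulated data. Values per library are given for genes called in at least 1 line and for the next by size, up to 10 genes. Overlapping genes were taken from GENCODE, by position, and some are not reported here. Members and lists were chosen with earlier results of these data known. Alternatives were the pseudocount (0.1), the filter (none, 5 TPM), median-of-ratios scaling, no minimum fold change, no trend, separate fits, a replicate block and leaving out each library.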

Additional observations from a re-analysis of the deposited data

Results flagged for a closer look

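Differences between forms of HNF4A that had an adjusted p under 0.05 in a test of the difference itself and a size of at least 1 are listed here. In the limma model of line means, isoforms 4 to 6 were lower than isoforms 1 to 3 for ACAD11 (-1.19, adjusted p 0.00813), ACAA2 (-1.07, adjusted p 0.00867) and HADHB (-1.06, adjusted p 0.000902). In the same model isoforms 7 to 9 were lower than isoforms 1 to 3 for HADHB (-1.08, adjusted p 0.00311). In the contrasts of single lines, isoform 3 was lower than isoform 1 for ACAD11 (-1.19, limma adjusted p 4.77e-11) and ACAA2 (-1.19, limma adjusted p 4.15e-15). Isoform 12 was lower than isoform 10 for ACAA2 (-1.03, limma adjusted p 2.92e-13). All are differences in log2(TPM + 1). Without replicate 1 of isoform 3, the ACAD11 difference between isoforms 3 and 1 was -0.99.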

How the results depend on the processing

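The number of genes called was 7 in isoforms 1 to 3, 0 in isoforms 4 to 6, 1 in isoforms 7 to 9 and 2 in isoforms 10 to 12. Leaving out each of the 39 libraries in turn gave 6 to 7, 0, 1 and 2, the count of isoform 2 alone went from 4 to between 3 and 6, and the class comparisons kept 3, 1, 0, 0 and 0 calls. Without a minimum fold change the counts were 26, 13, 17 and 17 genes, and 20 and 11 for isoforms 4 to 6 and 7 to 9 against 1 to 3. With median-of-ratios scaling and no minimum fold change, chosen after seeing the data, they were 28, 14, 23, 21, 22 and 11. Line by line, isoforms 1 to 12 had 25, 22, 19, 11, 5, 5, 14, 14, 10, 17, 13 and 8 genes without the minimum, and 25, 23, 20, 13, 5, 6, 17, 16, 12, 20, 17 and 9 with the scaling as well. The wider counts follow from the rule itself, which drops the minimum. No share of all genes was formed for counts pooled over 3 lines. With isoform 1 alone 19.8% of all genes rose and 38.7% fell, so the pooled counts are no result about the 28 genes. With median-of-ratios scaling and the minimum kept, isoform 2 had 8 genes in place of 4. The counts under the other alternatives stayed within 1.5 times. Of the 14 single calls under 48 alternatives each, 0 reversed and 13 kept their side of the threshold throughout, and DECR1 with isoform 2 went under the minimum in 3 of the fits that left out a library. Many of these alternatives could not undo a call. Leaving out a library of another line does not change the log2 fold change of a call, and dropping the minimum cannot remove one. The count of 13 therefore says little about stability beyond the alternatives that could move a call.

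A replicate block was fitted over the 33 libraries whose columns carry a replicate number, without isoforms 4 and 5. With the replicate block 7 genes were called in isoforms 1 to 3, 0 in isoform 6, 1 in isoforms 7 to 9 and 2 in isoforms 10 to 12, and 14 calls were made both with and without it. Over the 10 lines, the passes of a gene in a line without a minimum went from 145 to 158. Same-numbered libraries had a median correlation of 0.0542 in their deviations (range -0.175 to 0.232), and others -0.0293, so the numbers are not shown to pair the libraries. Genes under 1 TPM and counting error could not be judged from TPM.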
